A study of Mus musculus with 12 samples.

Results

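The genes described are those of sterol and fatty acid synthesis: 31 genes, chosen by name, that encode the enzymes of the cholesterol pathway, the regulators of the sterol-regulated transcription factors SREBP, and the lipogenic enzymes that SREBP is known to switch on. All 31 were found among the 48440 genes of the count table, and all 31 had enough counts to be among the 16292 genes tested. They were followed in mouse bone-marrow-derived macrophages, cells grown in culture from marrow precursors. Cells labelled CKO and cells labelled WT were each left untreated, given IFN-γ (100 U/mL), or given IL-4 (20 ng/mL), for 24 h before RNA was taken. Each of the 6 groups has n = 2 RNA-seq libraries, 12 in all. The label CKO is not spelled out. IRF8, a myeloid transcription factor, is named in the title of the series. Not given in the sources used here are the strain and age of the mice and the promoter or Cre behind the CKO label.

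Cholesterol is built from acetyl-CoA, which is joined and reduced to mevalonate, turned into isoprene units, coupled to squalene, closed into lanosterol and trimmed to cholesterol. Fatty acids are built from the same acetyl-CoA by a separate set of cytosolic enzymes. Both sets are under the SREBP transcription factors, which sit in the endoplasmic reticulum membrane with their escort SCAP. INSIG proteins hold SCAP there when sterols are plentiful. When sterols are scarce, SCAP carries SREBP to the Golgi, where it is cut and freed to enter the nucleus. SREBP binds sterol regulatory elements, usually next to sites for NF-Y, which reads the letters CCAAT, and for Sp1, which reads GC-rich boxes. In macrophages, interferons are known to hold this pathway down.

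On GRCm38 (GENCODE M21) the 31 genes lie on 16 chromosomes. Hmgcs1 is at chr13:119690379-119708260, Cyp51 at chr5:4081145-4104746, Sc5d at chr9:42251595-42264256 and Fasn at chr11:120805846-120824547. Scd2 (chr19:44293674-44306864) and Scd1 (chr19:44394455-44407879) are neighbours on opposite strands. Promoters of 25 of the 31 genes, 33 promoters in all, could be taken from RefSeq on GRCm38.p6 as the 250 bases before the start. None is used for Fdps, Fdft1, Sqle, Stard4, Scd1 and Scd2. 4 are printed, chosen because 2 belong to sterol enzymes whose response to IFN-γ differed between the labels, 1 to the main fatty acid enzyme, and 1 to a branch enzyme whose level passed no test. Capitals mark TCACNCCAC, used here as the letters of a sterol regulatory element, and CCAAT, both sought on either strand. No overlap of the 2 motifs occurred in these 4 promoters, while 2 CCAAT matches of Fasn, on opposite strands, overlap each other. Each sequence runs 5′ to 3′ on the strand of its gene.
Hmgcs1, chr13:119690101-119690350 (+): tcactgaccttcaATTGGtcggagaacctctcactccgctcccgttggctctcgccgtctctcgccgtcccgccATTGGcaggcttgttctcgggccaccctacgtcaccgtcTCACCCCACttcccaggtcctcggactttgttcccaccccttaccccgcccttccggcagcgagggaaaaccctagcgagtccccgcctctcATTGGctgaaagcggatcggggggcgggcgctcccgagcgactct
Sc5d, chr9:42264301-42264550 (-): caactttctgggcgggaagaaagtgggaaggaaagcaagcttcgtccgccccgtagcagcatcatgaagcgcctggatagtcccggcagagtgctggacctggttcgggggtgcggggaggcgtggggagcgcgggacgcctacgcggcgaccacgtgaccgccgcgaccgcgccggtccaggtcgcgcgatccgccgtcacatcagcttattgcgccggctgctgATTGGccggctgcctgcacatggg
Fasn, chr11:120824548-120824797 (-): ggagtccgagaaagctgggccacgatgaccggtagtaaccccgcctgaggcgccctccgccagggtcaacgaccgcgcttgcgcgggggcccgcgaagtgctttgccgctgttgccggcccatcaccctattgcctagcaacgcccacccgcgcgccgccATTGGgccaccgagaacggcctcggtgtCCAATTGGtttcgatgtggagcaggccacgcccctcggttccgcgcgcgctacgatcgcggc
Ggps1, chr13:14063489-14063738 (-): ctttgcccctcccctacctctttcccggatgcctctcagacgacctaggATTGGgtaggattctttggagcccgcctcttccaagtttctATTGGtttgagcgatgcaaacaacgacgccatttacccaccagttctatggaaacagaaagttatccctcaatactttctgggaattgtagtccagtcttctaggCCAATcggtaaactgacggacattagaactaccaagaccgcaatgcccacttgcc

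The letters TCACNCCAC stood in 1 of the 33 promoters, that of Hmgcs1, 137 bases before the start, against 1.05% of 32851 promoters of mouse genes cut the same way. The sterol enzymes have 18 of the promoters, which belong to 15 of the 18 enzymes, some with more than 1. CCAAT stood in 14 of these 18 promoters (77.8%), against 33.8% of all promoters. Counted by gene, with a match in any of its promoters, it stood in 14 of the 15 (93.3%), against 37.5% of all genes with a promoter. The Sp1 letters GGGCGG, also sought on both strands, stood in 15 of the same 18 promoters (83.3%), against 32.7% of all. The Ggps1 and Fasn promoters each hold 3 CCAAT matches and no GGGCGG. A match describes the letters and is neither a shown binding site nor a cause of the levels below.

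Library totals lay between 21287725 and 32717379 counts, and levels are given in CPM, the counts scaled to the TMM-adjusted library size. The libraries of a group differed by more than sampling noise in every group, and the labels do not say whether they came from different animals, so p-values measure the spread between these libraries, which may be technical. Irf8 had 293 and 248 CPM in the untreated CKO-labelled libraries, against 90.9 and 91.2 CPM in the untreated WT-labelled ones, and was higher in CKO-labelled libraries under both cytokines too. If CKO marks a deletion of Irf8, its RNA level goes against the label, although a count over the whole gene does not check the loss of single exons. Lyz2, which encodes lysozyme, lay between 12.6 and 28.0 CPM in the 6 CKO-labelled libraries, against 5845 to 11858 CPM in the 6 WT-labelled ones. The directions below are those of the libraries as labelled. Untreated CKO-labelled library 1 stood apart, with 1.52% of its counts in mitochondrial genes, against 2.12% to 3.25% in the other 11. All 8 macrophage markers were detected in every group, with a summed level of 5453 to 9520 CPM, while erythroid, stromal and mast cell lists summed to at most 0.338 CPM. A list of 13 neutrophil and precursor markers, with no member at 0 throughout, summed to 175 to 411 CPM in CKO-labelled libraries, against 35.1 to 72.3 CPM in WT-labelled ones. Another list of 6 monocyte markers summed to 225 to 614 CPM in CKO-labelled libraries, against 146 to 292 CPM in WT-labelled ones. In bulk RNA, fewer cells of a type and less RNA per cell cannot be told apart.

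Together the 31 genes took 0.164% and 0.200% of all counts in the untreated CKO-labelled libraries, against 0.280% and 0.322% in the untreated WT-labelled libraries. After IFN-γ their share was 0.112% and 0.115% in CKO-labelled libraries, against 0.139% and 0.137% in WT-labelled ones. After IL-4 it was 0.257% and 0.291% in CKO-labelled libraries, against 0.308% and 0.360% in WT-labelled ones. Within each treatment the CKO-labelled libraries lay below the WT-labelled ones, and within each label the IFN-γ libraries were the lowest. The 95% Wilson intervals of these shares reach at most 0.0024 percentage points from the share and cover counting error only. Per kilobase of annotated exon in untreated WT-labelled cells, Insig1 had the highest level, at 77.7 CPM per kb. Acly, at 55.4 CPM per kb, and Hmgcs1, at 54.1 CPM per kb, came next. Scd1 had the lowest, at 0.502 CPM per kb, with 3 to 174 counts in a library, and its level passed the filter in both libraries in 4 of the 6 groups, where every other member did in all 6. Exon length from the annotation need not match the exons that an exome capture library samples, so these levels between genes are approximate.

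**Figure D1:**
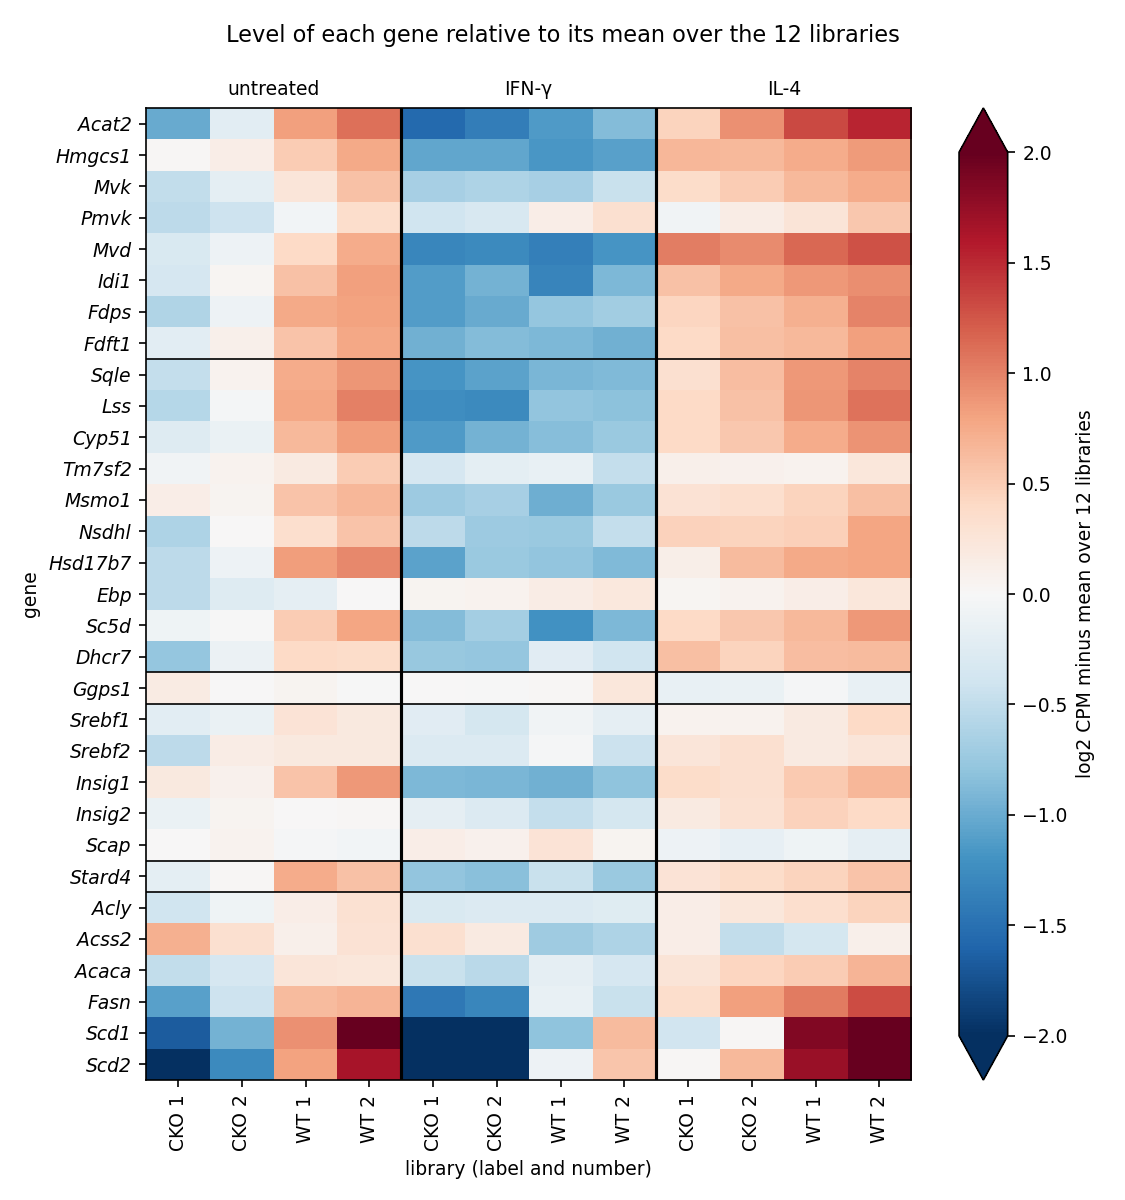
Level of each of the 31 genes (rows, grouped by role) in each of the 12 libraries (columns, by treatment, CKO before WT), as log2 CPM minus the gene's mean over the 12 libraries. Blue fills the IFN-γ columns for most sterol enzymes, which are lower in the untreated CKO columns than in the untreated WT columns. Scd1, Scd2 and Fasn are blue in the untreated CKO columns, and Ggps1 and Scap stay near 0.

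The first comparison asks how the CKO label and the WT label differ in macrophages without cytokine. In untreated cells 24 of the 31 genes were lower in CKO-labelled libraries and 0 were higher, where 9.37% of all genes tested were called lower and 8.6% higher. The median log2 fold change of the 31 genes was -0.72, against 0.0036 for all genes tested. All 8 genes of the mevalonate arm fell, 8 of 10 from squalene to cholesterol fell, and 5 of 6 lipogenic genes fell.

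Hmgcs1, which makes HMG-CoA ahead of mevalonate, had 162 and 176 CPM in CKO-labelled libraries, against 227 and 270.1 CPM in WT-labelled libraries. Its log2 fold change was -0.56 ± 0.10 (SE, adjusted p = 0.00445). Both CKO-labelled values lay below both WT-labelled values. Acat2, the cytosolic thiolase that joins the first pair of acetyl-CoA units, fell most in this arm, to 13.4 and 23.3 CPM in CKO-labelled libraries, against 47.7 and 57.7 CPM in WT-labelled libraries, a log2 fold change of -1.51 ± 0.24 (adjusted p = 0.00257). The groups did not overlap, and CKO-labelled library 1 was the lowest. Its near-copy Acat3 matches it at 97.7% over 1477 bases, so the split of reads between them is uncertain. Further down the arm, Mvd, which removes the carboxyl group to give isopentenyl diphosphate, had 25.3 and 29.2 CPM in CKO-labelled libraries, against 41.3 and 52.2 CPM in WT-labelled ones (log2 -0.78 ± 0.13, adjusted p = 0.00263). Fdps, the farnesyl diphosphate synthase, had 20.8 and 29.5 CPM in CKO-labelled libraries, against 53.6 and 55.5 CPM in WT-labelled ones (log2 -1.11 ± 0.16, adjusted p = 9.87e-04). For both genes the CKO-labelled libraries were the lower pair. The kinases Mvk and Pmvk, the isomerase Idi1 and the squalene synthase Fdft1 also fell, with log2 fold changes between -0.63 and -0.84. Fdft1 shares 774 exon bases with the abundant Ctsb on the opposite strand, and since the strand setting of the counting is not given, its level is uncertain.

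Past squalene, Hsd17b7, a sterol ketone reductase, had 18.6 and 24.7 CPM in CKO-labelled libraries, against 47.5 and 51.6 CPM in WT-labelled libraries (log2 -1.19 ± 0.18, adjusted p = 0.00152). Lss, which closes the rings to lanosterol, had 37.4 and 53.8 CPM in CKO-labelled libraries, against 94.7 and 111 CPM in WT-labelled ones (log2 -1.17 ± 0.16, adjusted p = 7.04e-04). The WT-labelled values were the higher pair for both. Cyp51, the lanosterol demethylase, had 81.4 and 88.8 CPM in CKO-labelled libraries, against 153 and 174 CPM in WT-labelled ones, with the smallest adjusted p of the 31 genes (log2 -0.94 ± 0.11, adjusted p = 3.11e-04). Sqle, squalene epoxidase, had 64.5 and 94.2 CPM in CKO-labelled libraries, against 149.9 and 165 CPM in WT-labelled ones, with no overlap (log2 -0.99 ± 0.16, adjusted p = 0.00214). Msmo1, Nsdhl, Sc5d and Dhcr7, which act on the sterol nucleus after lanosterol, also fell, with log2 fold changes between -0.53 and -0.78. The 2 enzymes that did not pass were Tm7sf2, a sterol reductase (-0.35 ± 0.16, adjusted p = 0.138), and Ebp, a sterol isomerase (-0.30 ± 0.11, adjusted p = 0.0807). Tm7sf2 shares 532 exon bases with Vps51 on the same strand, so reads there cannot be assigned with certainty. Cyp51 shares 166 exon bases with Akap9 on the opposite strand, so its level is uncertain too.

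Among the regulators, Insig1, the anchor that is itself an SREBP target, had 166 and 154 CPM in CKO-labelled libraries, against 216 and 265 CPM in WT-labelled libraries (log2 -0.59 ± 0.11, adjusted p = 0.00555). Srebf1, which encodes the SREBP that favours fatty acid genes, had 51.1 and 53.9 CPM in CKO-labelled libraries, against 71.1 and 67.9 CPM in WT-labelled ones (log2 -0.40 ± 0.10, adjusted p = 0.0216). The pairs did not overlap in either gene. Srebf2, which encodes the SREBP that favours sterol genes, had 81.9 and 130.0 CPM in CKO-labelled libraries, against 135 and 134 CPM in WT-labelled ones, and did not pass (log2 -0.34 ± 0.18, adjusted p = 0.212). Its low value was that of library 1, and library 2 lay close to the WT-labelled pair. Insig2, another anchor, and Scap, the escort, had log2 values of -0.05 and 0.08 and did not pass. Stard4, a cytosolic carrier of cholesterol, had 53.9 and 63.0 CPM in CKO-labelled libraries, against 103 and 93.3 CPM in WT-labelled ones, and fell with the enzymes (log2 -0.75 ± 0.12, adjusted p = 0.00228).

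The lipogenic genes held the largest differences. Scd2, a desaturase that makes monounsaturated fatty acids, had 15.4 and 25.8 CPM in CKO-labelled libraries, against 109.7 and 196 CPM in WT-labelled libraries, 7.38-fold lower (log2 -2.88 ± 0.42, adjusted p = 0.00352). Its relative Scd1 had 0.228 and 0.375 CPM in CKO-labelled libraries, against 1.36 and 3.55 CPM in WT-labelled ones (log2 -2.97 ± 0.64, adjusted p = 0.0117). In both genes the CKO-labelled libraries were lower, and in both the WT-labelled pair was spread, library 2 being the higher. Scd1 and Scd2 match at 95.5% over 623 bases, so the low Scd1 count may hold reads of Scd2. Scd1 had 6 and 13 counts in the untreated CKO-labelled libraries, and library 1 lay under the filter level of 0.351 CPM. Scd1 thus entered this test through groups where it was higher, which makes its call a weak one. Neither the Scd1 call nor the Scd2 call held in every fit with 1 library left out. Fasn, the fatty acid synthase, had 96.1 and 153 CPM in CKO-labelled libraries, against 316 and 328 CPM in WT-labelled ones (log2 -1.37 ± 0.22, adjusted p = 0.00248). Acaca, which makes malonyl-CoA for it, had 61.3 and 68.2 CPM in CKO-labelled libraries, against 101 and 100.4 CPM in WT-labelled ones (log2 -0.64 ± 0.11, adjusted p = 0.00266). Neither pair overlapped the other in Fasn or Acaca. Gm5182 matches Acaca at 99.2% over 6118 bases, so the Acaca count is uncertain. Acly, which frees cytosolic acetyl-CoA from citrate, fell less (-0.45 ± 0.11, adjusted p = 0.0204). Acss2, which makes acetyl-CoA from acetate, went against the group without passing, with 20.4 and 15.4 CPM in CKO-labelled libraries, against 13.3 and 15.1 CPM in WT-labelled ones (log2 0.33 ± 0.21, adjusted p = 0.301).

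Without untreated CKO-labelled library 1, the median log2 fold change of the 31 genes was -0.57. Without untreated WT-labelled library 2 it was -0.61. Fewer genes passed in these fits than with all untreated libraries, both among the 31 and over all genes tested. In the same libraries a list of 13 cell cycle genes summed to 1665 and 2739 CPM in CKO-labelled cells, against 3448 and 3347 CPM in WT-labelled cells, and its part in the differences, like that of the neutrophil and monocyte markers, was not tested.

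**Figure D2:**
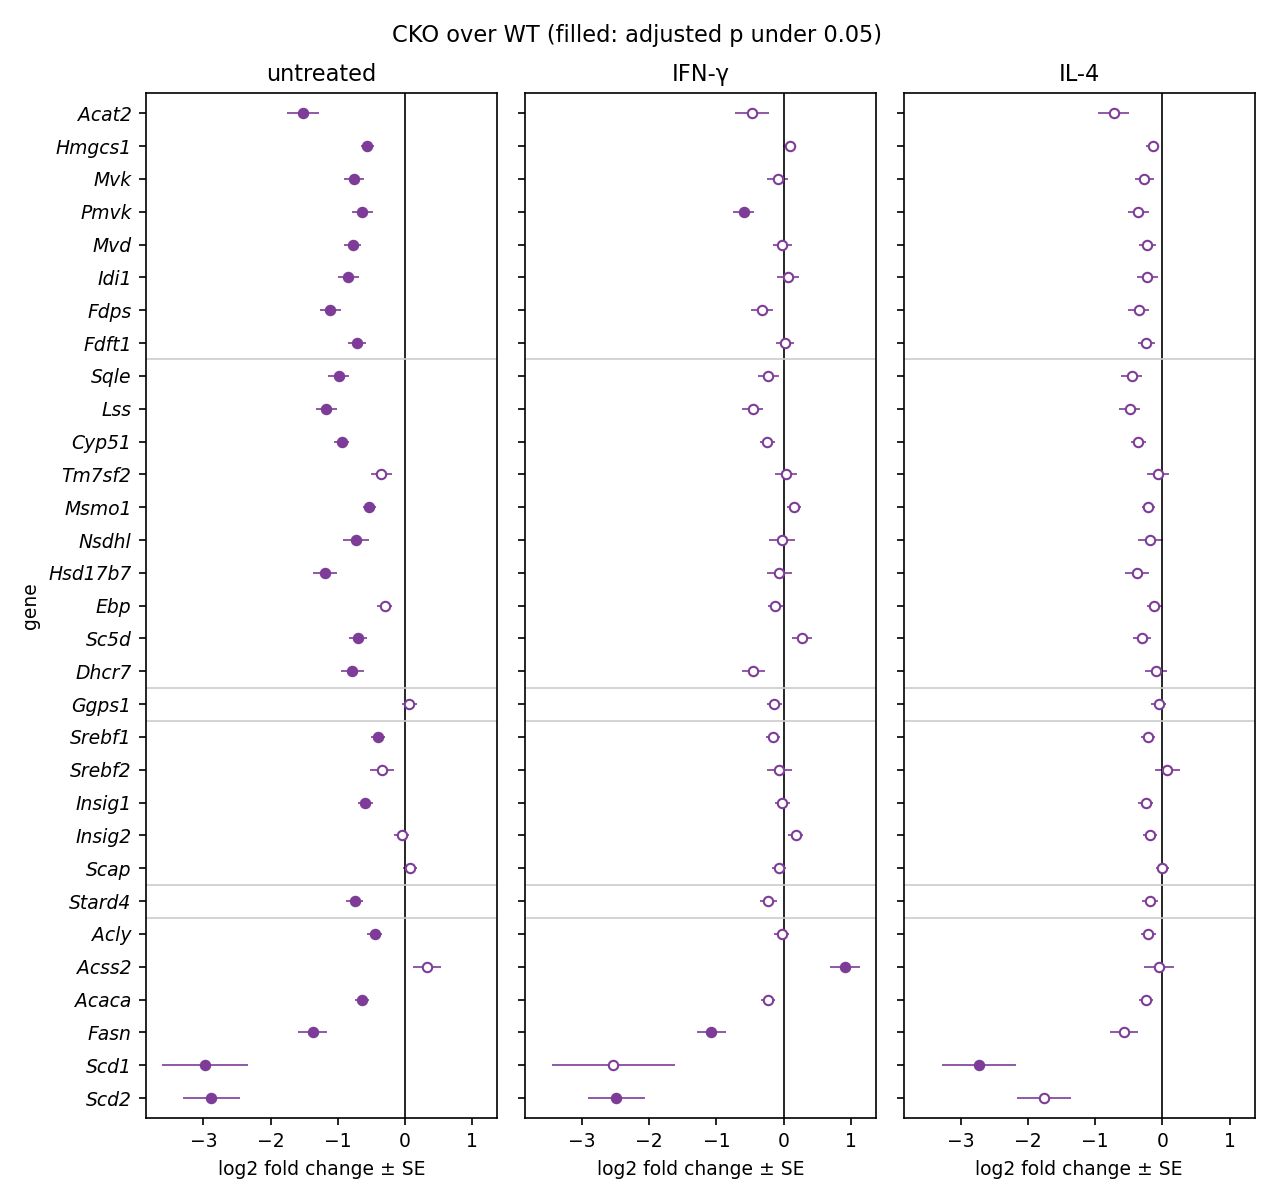
Log2 fold change of CKO over WT for each of the 31 genes (rows, grouped by role) in untreated, IFN-γ-treated and IL-4-treated cells, with the approximate SE as bars and filled points for an adjusted p under 0.05. The left panel holds 24 filled points below 0, the middle panel 3 below and 1 above 0, and the right panel 1 below 0.

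The next comparison is the response to IFN-γ, the cytokine by which T cells and NK cells activate macrophages. In CKO-labelled cells 15 of the 31 genes fell and 1 rose, where 11.9% of all genes tested fell and 14.7% rose. In WT-labelled cells 24 fell and 0 rose, where 11.8% of all genes fell and 12.4% rose. The median log2 fold change of the 18 sterol enzymes was -0.76 in CKO-labelled cells and -1.57 in WT-labelled cells. The responses of each label and the untreated comparison above share the untreated libraries, so they are not independent of each other. Without untreated CKO-labelled library 1, the median log2 fold change of the 18 sterol enzymes in CKO-labelled cells was -0.86. The cell cycle list summed to 1790 and 2034 CPM after IFN-γ, against 1665 and 2739 CPM untreated, in CKO-labelled libraries, and to 2949 and 3050 CPM after IFN-γ, against 3448 and 3347 CPM untreated, in WT-labelled ones. Its part in the responses was not tested.

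In the mevalonate arm Hmgcs1 had 78.2 and 78.1 CPM in IFN-γ-treated CKO-labelled libraries, against 162 and 176 CPM in untreated ones (log2 -1.11 ± 0.10, adjusted p = 6.65e-06). With the WT label it had 71.3 and 75.6 CPM after IFN-γ, against 227 and 270.1 CPM untreated (log2 -1.76 ± 0.10, adjusted p = 1.37e-07). All 4 treated libraries lay between 71.3 and 78.2 CPM, whichever their label, below all 4 untreated libraries. Idi1, the isomerase that prepares isoprene units for coupling, had 33 and 37.3 CPM after IFN-γ, against 57.0 and 73.6 CPM untreated, in CKO-labelled cells (log2 -0.89 ± 0.16, adjusted p = 0.00137). In WT-labelled cells it had 28.6 and 38.6 CPM after IFN-γ, against 107 and 127 CPM untreated (log2 -1.80 ± 0.16, adjusted p = 6.28e-06). The treated Idi1 levels overlapped between the labels. Idi1 has a near-copy, Gm13502, with 100% identity over 684 bases, so its count is uncertain. Acat2, Mvd, Fdps and Fdft1 fell with both labels, Mvk did not pass in CKO-labelled cells (log2 -0.30 ± 0.15, adjusted p = 0.164) and fell in WT-labelled cells (log2 -0.97 ± 0.15), and Pmvk passed with neither (0.11 in CKO-labelled cells and 0.064 in WT-labelled cells). The Acat2 call in CKO-labelled cells depended on single libraries. Its log2 fold change ran from -1.28 to -0.47 as 1 library was left out.

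From squalene on, Sqle had 39.7 and 42.6 CPM in treated CKO-labelled libraries, against 64.5 and 94.2 CPM untreated (log2 -0.95 ± 0.16, adjusted p = 8.68e-04). WT-labelled cells had 47.5 and 48.8 CPM after IFN-γ, against 149.9 and 165 CPM untreated (log2 -1.71 ± 0.16, adjusted p = 8.94e-06). Each treated pair lay below its untreated pair. Sc5d, a desaturase of the sterol ring, had 20.5 and 23.3 CPM after IFN-γ, against 35.2 and 37.1 CPM untreated, in CKO-labelled cells (log2 -0.72 ± 0.14, adjusted p = 0.00244). With the WT label it had 16.1 and 20.0 CPM after IFN-γ, against 52.8 and 64.5 CPM untreated (log2 -1.70 ± 0.14, adjusted p = 3.44e-06). Both treated CKO-labelled values were above both treated WT-labelled values, the reverse of the untreated order. Lss, Cyp51, Msmo1 and Hsd17b7 fell with both labels, and Tm7sf2, Nsdhl and Dhcr7 passed with the WT label only, which is not a test of the difference. Ebp moved against its group, to 45.0 and 45.3 CPM in treated CKO-labelled libraries, against 30.1 and 36.3 CPM in untreated ones, a rise (log2 0.44 ± 0.11, adjusted p = 0.0109). Its change in WT-labelled cells had the same sign and missed the threshold (log2 0.26 ± 0.11, adjusted p = 0.112). As 1 library was left out, the CKO-labelled log2 fold change of Ebp ran from 0.29 to 0.58. That of Hsd17b7 ran from -0.81 to -0.38, and neither call always held.

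Of the regulators, Insig1 had 78.4 and 77.2 CPM in treated CKO-labelled libraries, against 166 and 154 CPM untreated (log2 -1.04 ± 0.11, adjusted p = 2.57e-05). WT-labelled cells had 74.7 and 83.2 CPM after IFN-γ, against 216 and 265 CPM untreated (log2 -1.61 ± 0.11, adjusted p = 7.08e-07). Its treated levels overlapped between the labels. Srebf1 and Insig2 missed the threshold in CKO-labelled cells, with log2 fold changes of -0.12 and -0.19, and fell in WT-labelled cells, with -0.36 and -0.42. Srebf2 and Scap passed with neither label. Stard4 fell in both, with log2 fold changes of -0.73 ± 0.12 in CKO-labelled cells and -1.26 ± 0.12 in WT-labelled cells. Among lipogenic genes Fasn had 75.2 and 82.4 CPM in treated CKO-labelled libraries, against 96.1 and 153 CPM untreated (log2 -0.66 ± 0.21, adjusted p = 0.0429). In WT-labelled cells it had 183 and 149 CPM after IFN-γ, against 316 and 328 CPM untreated (log2 -0.96 ± 0.21, adjusted p = 0.00704). Treated pairs were below untreated pairs with each label. As 1 library was left out, the Fasn log2 fold change in CKO-labelled cells ran from -0.98 to -0.29. The Fasn call there did not always hold. Acly, Acss2 and Acaca did not pass in CKO-labelled cells, where their log2 fold changes lay between -0.052 and -0.27, and fell in WT-labelled cells, where they lay between -0.47 and -0.86. Scd1 and Scd2 had negative log2 values with both labels and passed with neither.

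The difference between the labels in the IFN-γ response was tested as an interaction, which asks whether the log2 change in CKO-labelled cells differs from that in WT-labelled cells. It was past the threshold for 5 of the 31 genes, all with a smaller fall in CKO-labelled cells, where 2.07% of all genes tested were called in that direction and 0.651% in the other. All 5 are sterol enzymes: Hmgcs1 (0.65 ± 0.14, adjusted p = 0.0365), Cyp51 (0.70 ± 0.16, adjusted p = 0.0382), Msmo1 (0.69 ± 0.14, adjusted p = 0.0256), Hsd17b7 (1.13 ± 0.26, adjusted p = 0.0426) and Sc5d (0.98 ± 0.20, adjusted p = 0.0252). Over all 31 genes the difference was positive in 29, with a median of 0.57, against 0.015 for all genes tested. Hsd17b7 shows the shape. It had 12.8 and 15.9 CPM after IFN-γ, against 18.6 and 24.7 CPM untreated, in CKO-labelled cells. In WT-labelled cells it had 15.5 and 14.5 CPM after IFN-γ, against 47.5 and 51.6 CPM untreated. The treated libraries overlapped between the labels, and the untreated ones did not. The count of 5 depends on single libraries. As 1 library was left out, the number passing moved over all genes tested as well. In these fits the median difference of the 31 genes ran from 0.40 to 0.74. With the library number as a block within each label, the test called 14, all positive, where it called 6.63% of all genes tested.

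**Figure D3:**
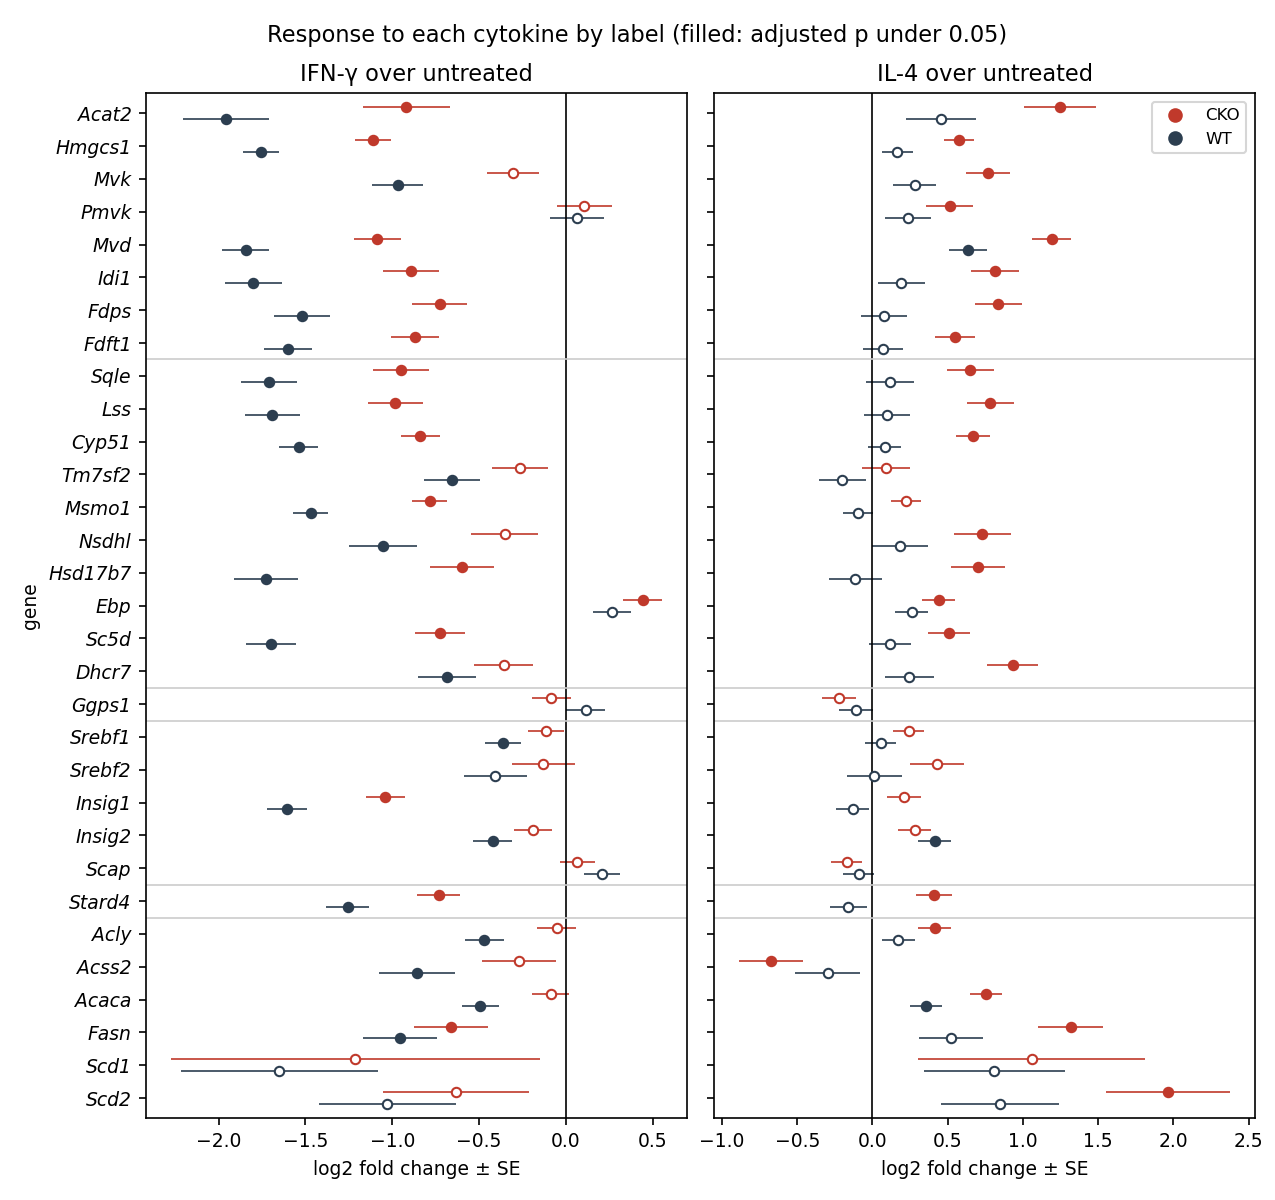
Log2 fold change of each cytokine over untreated cells for the 31 genes (rows, grouped by role), CKO in red above WT in dark blue, with the approximate SE as bars and filled points for an adjusted p under 0.05. After IFN-γ most red points lie nearer to 0 than the dark blue ones, and after IL-4 most red points lie farther above 0.

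In IFN-γ-treated cells few of these genes passed between the labels. Compared directly, 3 of the 31 genes were lower and 1 higher in CKO-labelled libraries. Over all genes tested, 8.01% were called lower and 10.4% higher. The median of the 31 was -0.089. The count of lower genes is close to the share of all genes, so these counts are no result about the 31 genes as a set. Scd2 had 13.2 and 13.5 CPM in CKO-labelled libraries, against 57.9 and 91.7 CPM in WT-labelled libraries (5.61-fold lower, log2 -2.49 ± 0.43, adjusted p = 0.00477). Fasn had 75.2 and 82.4 CPM in CKO-labelled libraries, against 183 and 149 CPM in WT-labelled ones (log2 -1.07 ± 0.22, adjusted p = 0.00633). Both genes were lower in each CKO-labelled library than in either WT-labelled one. Pmvk, the phosphomevalonate kinase, had 14.9 and 15.8 CPM in CKO-labelled libraries, against 21.6 and 24.7 CPM in WT-labelled ones (log2 -0.59 ± 0.16, adjusted p = 0.0224). Acss2 was higher, with 15.6 and 14.1 CPM in CKO-labelled libraries, against 7.58 and 8.13 CPM in WT-labelled ones (log2 0.92 ± 0.22, adjusted p = 0.0145). Neither of these genes overlapped between the labels. Acss2 shares exon bases with Gss and other genes on the opposite strand, so its level is uncertain. With any 1 of these libraries left out fewer genes passed, both among the 31 and over all genes tested. The median of the 31 then ran from -0.14 to -0.10.

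IL-4, a cytokine of allergy and tissue repair, gave another pattern. In CKO-labelled cells 21 of the 31 genes rose and 1 fell, where 11.2% of all genes tested rose and 11.3% fell. In WT-labelled cells 3 rose and 0 fell, where 6.64% of all genes rose and 5.59% fell. The WT-labelled counts are close to these shares and are no result about the 31 genes as a set. The median log2 fold change of the 18 sterol enzymes was 0.68 in CKO-labelled cells and 0.14 in WT-labelled cells. In CKO-labelled libraries the cell cycle list summed to 2264 and 3116 CPM after IL-4, against 1665 and 2739 CPM untreated, and the monocyte list to 225 and 271 CPM after IL-4, against 614 and 578 CPM untreated. Their part in the response was not tested.

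Mvd rose with both labels. It had 63.8 and 60.6 CPM in IL-4-treated CKO-labelled libraries, against 25.3 and 29.2 CPM untreated (log2 1.19 ± 0.13, adjusted p = 6.34e-05). In WT-labelled cells it had 69.4 and 75.8 CPM after IL-4, against 41.3 and 52.2 CPM untreated (log2 0.64 ± 0.13, adjusted p = 0.00659). Treated pairs lay above untreated pairs. Acat2 had 36.5 and 51.0 CPM after IL-4, against 13.4 and 23.3 CPM untreated, in CKO-labelled cells (log2 1.24 ± 0.24, adjusted p = 0.00442). WT-labelled cells had 66.9 and 77.6 CPM after IL-4, against 47.7 and 57.7 CPM untreated, and did not pass (log2 0.45 ± 0.23, adjusted p = 0.267). The pairs were apart with both labels. All other genes of the mevalonate arm rose in CKO-labelled cells, Hmgcs1 to 253 and 250.2 CPM after IL-4, against 162 and 176 CPM untreated (log2 0.58 ± 0.10, adjusted p = 0.00197).

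Dhcr7, which makes the last reduction to cholesterol in one branch of the pathway, had 40.1 and 35.8 CPM in treated CKO-labelled libraries, against 15.5 and 24.2 CPM untreated (log2 0.93 ± 0.17, adjusted p = 0.00238). Lss had 73.5 and 83.6 CPM after IL-4, against 37.4 and 53.8 CPM untreated (log2 0.78 ± 0.15, adjusted p = 0.00427). Both rose without overlap. Sqle, Cyp51, Nsdhl, Hsd17b7, Ebp and Sc5d rose, with log2 fold changes between 0.44 and 0.73, while Tm7sf2 (0.089) and Msmo1 (0.22) did not pass. No enzyme from squalene to cholesterol passed in WT-labelled cells, where their log2 values lay between -0.20 and 0.26. Stard4 rose in CKO-labelled cells, to 74.9 and 80.2 CPM after IL-4, against 53.9 and 63.0 CPM untreated (log2 0.41 ± 0.12, adjusted p = 0.0319), with no overlap.

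None of the 5 SREBP regulators passed in CKO-labelled cells, where Srebf2 had the highest log2 value (0.43 ± 0.18, adjusted p = 0.114). In WT-labelled cells Insig2 rose, to 31.5 and 30.2 CPM after IL-4, against 23.0 and 23.3 CPM untreated (log2 0.41 ± 0.11, adjusted p = 0.0298). Its pairs did not overlap. Fasn had 260.0 and 361 CPM in treated CKO-labelled libraries, against 96.1 and 153 CPM untreated (log2 1.32 ± 0.22, adjusted p = 0.00163). Scd2 had 63.3 and 98 CPM after IL-4, against 15.4 and 25.8 CPM untreated (log2 1.96 ± 0.41, adjusted p = 0.0109). Both rose in CKO-labelled cells, with the treated pair above the untreated pair. Acaca rose with both labels, with log2 fold changes of 0.75 ± 0.11 in CKO-labelled cells and 0.36 ± 0.11 in WT-labelled cells (adjusted p = 4.39e-04 and 0.0479). Acss2 again went against the group and fell in CKO-labelled cells, to 13.6 and 8.85 CPM after IL-4, against 20.4 and 15.4 CPM untreated (log2 -0.67 ± 0.21, adjusted p = 0.0419).

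In CKO-labelled cells fewer genes passed without untreated library 1 or without treated library 2, both among the 31 and over all genes tested. The median log2 fold change of the 31 genes was then 0.45 and 0.44, against 0.58 with all libraries. In WT-labelled cells fewer passed with any 1 library left out, again over all genes tested too. Their median for the 31 genes then ran from 0.0067 to 0.22. With the library number as a block within each label, 7 rose and 0 fell in WT-labelled cells, where 18.6% of all genes tested were called. Tested as an interaction, the difference between the labels in the IL-4 response passed for 0 of the 31 genes in edgeR, where 0.0368% of all genes tested were called, and DESeq2 also called 0. With no filter on low counts edgeR called 7, and with the block within each label 5, all positive, where 1.14% and 0.522% of all genes tested were called. At an unadjusted p under 0.05, 16 were higher and 0 lower. The share of all genes at that threshold was not taken, so this count is no result about the set. The difference, CKO-labelled response minus WT-labelled response, was positive in 27 of 31 genes with a median of 0.42. Without untreated CKO-labelled library 2 the median was 0.64.

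After IL-4, 1 of the 31 genes was lower in CKO-labelled than in WT-labelled libraries and 0 were higher, where 1.55% of all genes tested were called lower and 1.41% higher. That count is close to the shares of all genes and is no result about the set. The gene called was Scd1, with 0.555 and 0.733 CPM in CKO-labelled libraries, against 2.61 and 5.88 CPM in WT-labelled libraries (6.62-fold lower, log2 -2.73 ± 0.55, adjusted p = 0.0239). The groups did not overlap, and the WT-labelled values differed from each other by more than the CKO-labelled ones did. Scd1 is a weak measure here, since its counts were low and its copy Scd3 matches it at 91.4% over 1053 bases. Scd1 also matches Scd2 at 95.5% over 623 bases, with 479 counts over the 12 libraries against 34415 for Scd2. Its count may therefore hold reads of Scd2. The call was lost without either treated CKO-labelled library or treated WT-labelled library 2. Of the 31 genes, 26 had both CKO-labelled values below both WT-labelled values, as 25.4% of all genes tested did, and their median log2 fold change was -0.22. Scd2 had 63.3 and 98 CPM in CKO-labelled libraries, against 207 and 342 CPM in WT-labelled ones, without passing (log2 -1.77 ± 0.40, adjusted p = 0.0614). Fasn, with 260.0 and 361 CPM in CKO-labelled libraries, against 419 and 506 CPM in WT-labelled ones, did not pass either (log2 -0.57 ± 0.21, adjusted p = 0.233).

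**Figure D4:**
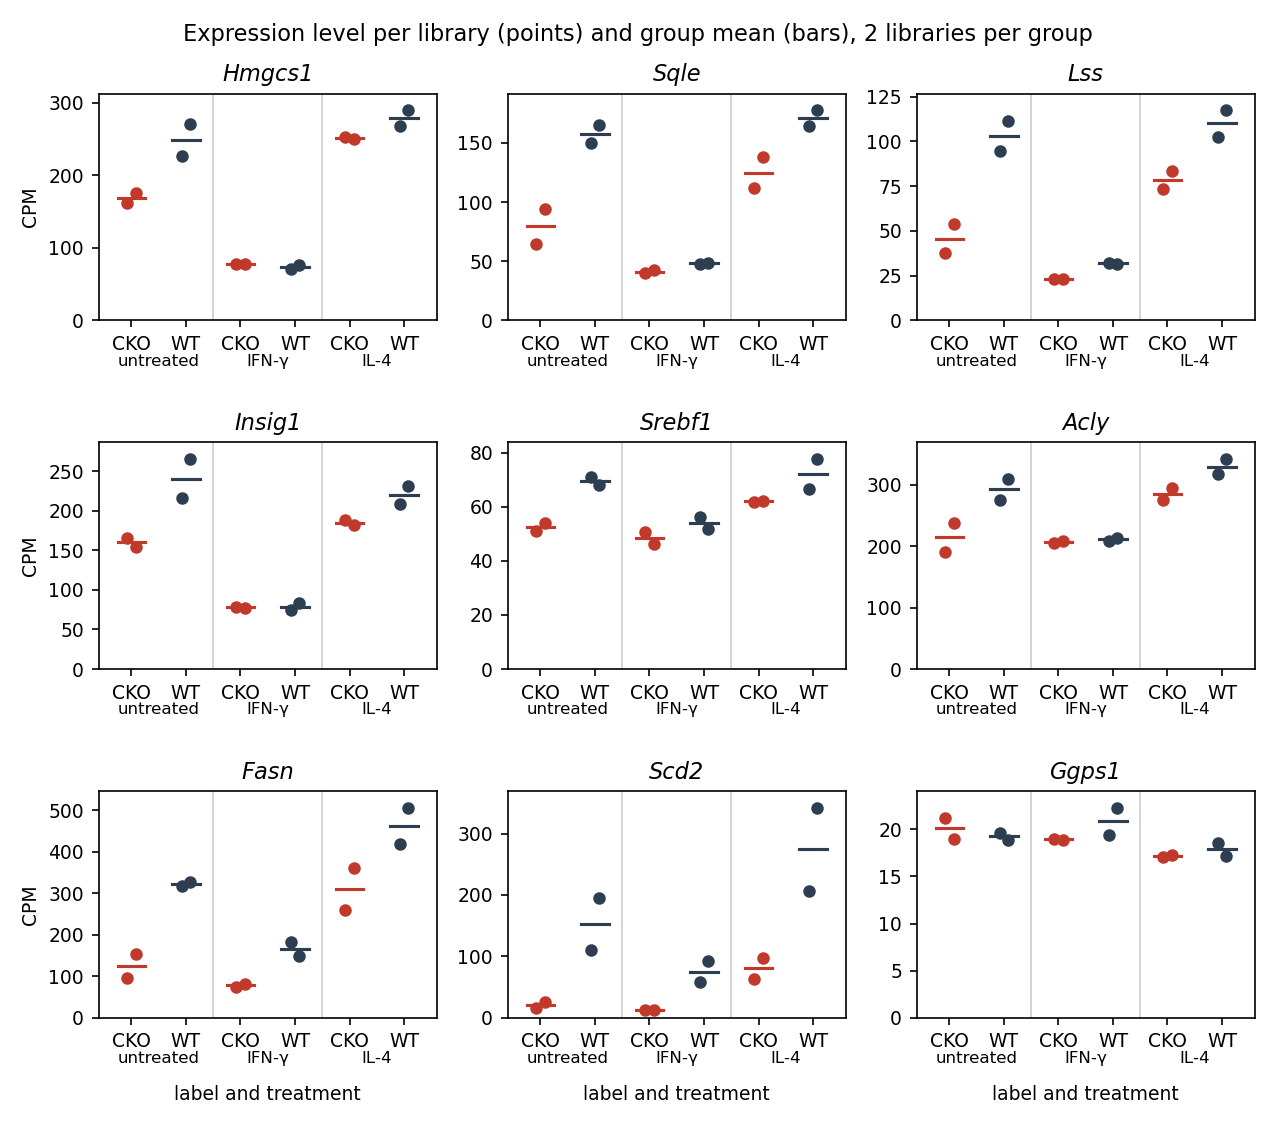
Level in CPM of 9 genes in each library (points) with the group mean (bars), by treatment and label, CKO left of WT, 2 libraries per group. Hmgcs1, Sqle and Lss are lowest after IFN-γ, the CKO points of Fasn and Scd2 lie below the WT points under each treatment, and Ggps1 lies between 17.1 and 22.3 CPM throughout.

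Across the 12 libraries the members varied unequally. The highest library was 52.7 times the lowest for Scd1, 25.9 times for Scd2, 8.48 times for Acat2 and 6.72 times for Fasn. At the other end it was 1.38 times for Scap and 1.30 times for Ggps1, which makes geranylgeranyl diphosphate for protein prenylation. Ggps1 passed in none of the 9 comparisons. Its levels ran from 17.1 to 22.3 CPM, and it shares 257 exon bases with Arid4b on the opposite strand. Scap and Srebf2 also passed in none.

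Genes of neighbouring steps, taken from lists chosen with earlier results of these data known, were read from the same fit. Of 17 other fatty acid synthesis genes, 10 were lower and 1 higher in untreated CKO-labelled cells, with a list median of -0.43. Over all genes tested, 9.37% were called lower and 8.6% higher. Mid1ip1, which helps acetyl-CoA carboxylase assemble, had 40.8 and 49.2 CPM in CKO-labelled libraries, against 97.6 and 116 CPM in WT-labelled ones (log2 -1.24 ± 0.17, adjusted p = 8.02e-04). Acsl3, an acyl-CoA synthetase, had 15.1 and 15.7 CPM in CKO-labelled libraries, against 27.9 and 39.9 CPM in WT-labelled ones (log2 -1.14 ± 0.22, adjusted p = 0.00719). Both pairs were apart. Of 7 genes that use isoprenoids, 1 was lower, too few to set apart from the share of all genes. It was Pdss1, which makes the tail of coenzyme Q (log2 -0.81 ± 0.18, adjusted p = 0.0107).

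On the side of sterol export and oxysterols, 3 of 8 genes tested were higher and 0 lower in untreated CKO-labelled cells. The shares of all genes tested were 8.6% higher and 9.37% lower. Nr1h3, which encodes the oxysterol-sensing receptor LXRα, had 16.2 and 12.8 CPM in CKO-labelled libraries, against 5.24 and 4.78 CPM in WT-labelled ones (log2 1.53 ± 0.14, adjusted p = 6.53e-05). After IFN-γ it had 52.6 and 48.6 CPM in CKO-labelled libraries, against 5.84 and 5.04 CPM in WT-labelled ones (log2 3.22 ± 0.15, adjusted p = 1.95e-07). The labels did not overlap under either treatment. Ch25h, which makes 25-hydroxycholesterol, an oxysterol known to hold SREBP in the endoplasmic reticulum, rose with both cytokines. After IFN-γ it had 1.69 and 3.61 CPM in CKO-labelled libraries, against 0.114 and 0.115 CPM untreated, and 10.1 and 16.5 CPM in WT-labelled ones, against 0.559 and 0.512 CPM untreated (log2 4.48 ± 1.31 and 4.63 ± 0.89). After IL-4 it had 2.5 and 15.1 CPM in CKO-labelled libraries and 9.70 and 11.6 CPM in WT-labelled ones (log2 6.22 ± 1.15 and 4.30 ± 0.90 over untreated). The 4 untreated libraries lay between 0.114 and 0.559 CPM, below all 8 treated ones, and the low counts leave the folds imprecise.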

How the data were processed

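Gene-level RNA-seq counts of 12 libraries were used. Per the labels, libraries were made with the Illumina NextSeq RNA Exome protocol. The deposited values are raw counts per gene, and the submitters' processing notes name HTSeq 0.6.1, TopHat2 2.0.13, CASAVA 1.8.2 and Picard 1.97, and the builds GRCh38 and mm10 without their roles. The identifiers are mouse Ensembl genes. The strand setting is not given in the sources used here.

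Groups were taken from the labels' genotype and treatment. edgeR 4.0.16 (R 4.3.3) was run on all genes that filterByExpr kept, with TMM scaling and robust quasi-likelihood F tests in 1 fit of 6 group means to 12 libraries, with 6 residual degrees of freedom. P-values were adjusted by Benjamini-Hochberg over the 16292 genes in each of 9 comparisons, at 0.05. The SE, an approximation, divides the size of the log2 fold change by the root of its F statistic. The scripts were tested on simulated data.

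The alternatives were DESeq2 1.42.0, DESeq2 size factors in edgeR, no filter, only the compared groups, a replicate block by library number, the same within genotype, and leaving out each library. All members may be named. Genes of other lists are named if called, up to 4 a list by adjusted p. Other sterol genes are not reported here. In the titles the number 1 or 2 is joined to the genotype label and recurs under each treatment. Deviations of same-numbered libraries correlated above 0.1 in all 6 pairs of groups that share a label, from 0.114 to 0.545, so the block within each label is given beside responses whose count it moves by over 1.5 times. The labels do not say what a number stands for. The members and lists were chosen with earlier results of these data known. Positions are those of GENCODE M21 (GRCm38). The identifier matched with its version for 21 of the 31 genes and without it for all, and near-copies were found by aligning its transcripts.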

Additional observations from a re-analysis of the deposited data

Results flagged for a closer look

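The response to IFN-γ differed between the labels, by the interaction test, for 5 sterol enzymes. The log2 response in CKO-labelled cells minus that in WT-labelled cells was 0.647 for Hmgcs1, 0.702 for Cyp51, 0.688 for Msmo1, 1.13 for Hsd17b7 and 0.976 for Sc5d. All 5 values are positive because the fall after IFN-γ was smaller in CKO-labelled cells, whose untreated levels were the lower ones. The interaction uses the untreated libraries of both labels, which also give the untreated comparison. The count of such calls ran from 0 to 15 when 1 library at a time was left out.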

How the results depend on the processing

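Of the 99 calls of a member in a comparison, 0 changed sign under any alternative run. DESeq2 size factors in edgeR left each count of calls within 1.5 times. With DESeq2 the calls between the labels after IL-4 numbered 3, and those of the IFN-γ difference 12. Of all genes tested, 4.17% and 4.08% were called there. With no filter on low counts the numbers were 8 between the labels after IFN-γ, 6 after IL-4, 5 for IL-4 in WT-labelled cells, 14 for the IFN-γ difference and 7 for the IL-4 difference. The shares of all genes called were 15.3%, 4.43%, 10.4%, 3.99% and 1.14% in the same order. In the main run these shares, in either direction, were 18.4%, 2.96%, 12.2%, 2.72% and 0.0368%. When each fit held just the groups being compared, the member counts were 14 between untreated labels, 8 after IFN-γ and 2 after IL-4. The counts were 12 for IL-4 in CKO-labelled cells, 6 for IL-4 in WT-labelled cells and 1 for the IFN-γ difference. The 8 after IFN-γ and the 6 in WT-labelled cells are close to the shares of all genes called in these fits. They are no result about the 31 genes as a set. The 14 and the 12 are above such shares, and the 2 and the 1 are too few to set apart. The cause of the shifts in the counts was not tested.

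Over all 15 pairs of groups, deviations of same-numbered libraries correlated between -0.018 and 0.545, above 0.1 in 12. The labels do not say that a number links libraries, so the main fit has no block and the blocks are alternatives. With the number as a replicate block the calls were 8 between the labels after IFN-γ, 6 after IL-4, 6 for IL-4 in WT-labelled cells and 14 for the IFN-γ difference. With the block within genotype the member counts were 10, 8, 7 and 14 in the same order, and 5 for the IL-4 difference. Here 29.1%, 7.78%, 18.6%, 6.63% and 0.522% of all genes tested were called. The shares of all genes thus rose as well. The member counts between the labels after IFN-γ and for IL-4 in WT-labelled cells are close to these shares. Those between the labels after IL-4 and for the IFN-γ and IL-4 differences are above them. With the number alone as the block, the 8 after IFN-γ and the 6 in WT-labelled cells are likewise close to its shares of all genes. The 6 between the labels after IL-4 and the 14 for the IFN-γ difference are above its shares. The cause of the added calls was not tested. Between the labels the block within genotype also takes out the spread between numbers of 1 label, so its counts there cover less of the error. The blocks left the other counts of calls within 1.5 times.

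With 1 library left out at a time, a group of 1 library being assumed to vary like the others, the calls ran from 13 to 26 between untreated labels, 1 to 3 after IFN-γ and 0 to 1 after IL-4. They ran from 12 to 18 for IFN-γ in CKO-labelled cells, 19 to 22 in WT-labelled cells, 11 to 24 for IL-4 in CKO-labelled cells and 0 to 1 in WT-labelled cells. The IFN-γ difference gave 0 to 15 and the IL-4 difference 0 to 6. Between untreated labels 11 of 24 calls held in every such fit: Acat2, Mvd, Idi1, Fdps, Sqle, Lss, Cyp51, Hsd17b7, Stard4, Acaca and Fasn. For IFN-γ, 12 of 16 held in CKO-labelled cells and 17 of 24 in WT-labelled cells, and for IL-4 in CKO-labelled cells 11 of 22 held. Scd1 is the member that depth limits most.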

Other observations

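Of all genes tested, 14.7% rose and 11.9% fell after IFN-γ in CKO-labelled cells, and 12.4% rose and 11.8% fell in WT-labelled cells. After IL-4, 11.2% rose and 11.3% fell in CKO-labelled cells, and 6.64% rose and 5.59% fell in WT-labelled cells. Of 17 other fatty acid synthesis genes, 3 rose and 6 fell after IFN-γ in CKO-labelled cells, and 3 rose and 9 fell in WT-labelled cells. Acsl3, an acyl-CoA synthetase, fell with both labels, with log2 fold changes of -1.52 ± 0.24 in CKO-labelled cells and -2.19 ± 0.24 in WT-labelled cells. Mid1ip1, a partner of acetyl-CoA carboxylase, did not pass in CKO-labelled cells (-0.10 ± 0.17) and fell in WT-labelled cells (-1.50 ± 0.17). This difference passed as an interaction (1.40 ± 0.24, adjusted p = 0.00994). After IL-4, 3 of the 17 rose and 0 fell in CKO-labelled cells, and 0 rose and 2 fell in WT-labelled cells. These IL-4 counts are close to the shares of all genes and are no result about the list.

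Of 8 sterol export and oxysterol genes, 4 rose and 3 fell after IFN-γ in CKO-labelled cells, and 3 rose and 1 fell in WT-labelled cells. Abcg1, a sterol exporter, rose with both cytokines and both labels. Its log2 fold change after IFN-γ was 2.44 ± 0.32 in CKO-labelled cells and 2.16 ± 0.31 in WT-labelled cells, and after IL-4 it was 2.78 ± 0.32 and 1.58 ± 0.31. The response of Nr1h3 to IFN-γ differed between the labels by 1.69 ± 0.20 (adjusted p = 0.00123). Of 7 isoprenoid-using genes, 2 rose and 1 fell after IFN-γ in CKO-labelled cells, and 2 rose and 0 fell in WT-labelled cells, too few genes to set apart from the shares of all genes. A list of 6 dendritic cell markers summed to 10.3 and 8.36 CPM in IFN-γ-treated CKO-labelled libraries, against 50.8 and 60.2 CPM in IFN-γ-treated WT-labelled ones. Clec9a carried most of that sum, with 6.47 and 5.5 CPM in CKO-labelled libraries, against 43.7 and 52.7 CPM in WT-labelled ones (log2 -3.01 ± 0.21, adjusted p = 3.63e-06). Of the 5 genes of the list that were tested, 3 were called lower there and 0 higher: Clec9a, Batf3 and Xcr1. Batf3 had a mean of 1.01 CPM in CKO-labelled libraries, against 4.55 CPM in WT-labelled ones. Xcr1 had a mean of 0.842 CPM, against 2.02 CPM. Zbtb46 and Flt3, named after their values were seen, had the opposite sign and did not pass (log2 1.72 ± 0.56 and 0.53 ± 0.95, adjusted p = 0.0522 and 0.745). The lymphocyte list summed to at most 0.720 CPM.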
